A study of Mus musculus with 9 samples.

Results

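Carboxylesterases are the 10 mouse genes Ces1d, Ces1e, Ces1f, Ces1g, Ces2a, Ces2b, Ces2c, Ces2e, Ces2g and Ces3a, taken by symbol from the authors' deposited gene-level comparison of mouse colon epithelium. Of these 10, 9 had a row among the 17511 genes of that table, and Ces3a had none. The members were named with results of the same comparison known, so their RNA values are given as a description. RNA-seq covered 2 DKO and 2 Wt libraries. Another 2 of each were ATAC-seq libraries, in which a transposase tags accessible DNA. By their strain labels, the DKO mice were Cdx1-/-Cdx2f/f vill (+) and the Wt mice Cdx1-/-Cdx2f/f vill (-), so that the libraries called Wt carried the Cdx1 null and floxed Cdx2 alleles too. RNA and ATAC mice of both groups had tamoxifen over 6 days, and epithelial cells were released from the colon with EDTA. A single ChIP-seq library of Cdx2, the homeodomain protein that sets intestinal identity, came from cells labelled Wt and carried an untreated tag. The labels give neither the ages of the mice nor what vill stands for, and they do not say that replicates were separate animals, so a p-value here reflects the scatter of these libraries only, and that scatter may be technical.

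Carboxylesterases are serine hydrolases that mostly reside in the lumen of the endoplasmic reticulum and cleave esters and amides. They split ester drugs and prodrugs, pyrethroids and other foreign esters, and several of them also hydrolyse triacylglycerol or other neutral lipids. In rodents the family has grown by tandem duplication, and the liver and the intestinal epithelium are its best known sites of expression. Several Ces genes are targets of the xenobiotic receptors PXR and CAR in mouse liver.

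The 20 Ces genes of the RefSeq annotation lie on chromosome 8 of GRCm38.p6, the assembly also called mm10. A run of 8 Ces1 genes spans 93020214 to 93379777 (360 kb), Ces5a lies beside it, and a run of 11 Ces2, Ces3 and Ces4 genes spans 104734003 to 105150109 (416 kb). The promoter table of RefSeq (build GRCm38.p6) held 6 of the 10 members, each as 300 bases running from 250 bases before the transcription start to 50 from the start on. Shown here are the promoter of the member with the largest fall (Ces1g), those of the lower members with an ATAC peak on the promoter in both Wt libraries (Ces1e and Ces2c), and that of the member that was higher (Ces2g). Capitals mark matches on either strand to CATAAA, the core of the Cdx site, to the TATA-box letters TATAAA, and to AAAGTCC, a part of the site bound by HNF4 receptors. A match on the strand opposite to the one printed appears as its reverse complement.
Ces1g, chr8:93337160-93337459, minus strand: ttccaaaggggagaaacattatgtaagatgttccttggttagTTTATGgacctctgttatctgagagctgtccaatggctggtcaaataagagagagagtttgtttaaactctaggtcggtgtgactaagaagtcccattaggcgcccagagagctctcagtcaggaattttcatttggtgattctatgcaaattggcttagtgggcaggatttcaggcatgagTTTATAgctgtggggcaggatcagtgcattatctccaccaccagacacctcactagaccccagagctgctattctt
Ces1e, chr8:93229570-93229869, minus strand: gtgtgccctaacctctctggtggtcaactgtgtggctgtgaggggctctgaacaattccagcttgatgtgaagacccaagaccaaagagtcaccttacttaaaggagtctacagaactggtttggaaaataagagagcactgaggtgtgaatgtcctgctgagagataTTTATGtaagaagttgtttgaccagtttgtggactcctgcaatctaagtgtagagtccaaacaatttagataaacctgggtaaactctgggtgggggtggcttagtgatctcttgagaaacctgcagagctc
Ces2c, chr8:104846818-104847117, plus strand: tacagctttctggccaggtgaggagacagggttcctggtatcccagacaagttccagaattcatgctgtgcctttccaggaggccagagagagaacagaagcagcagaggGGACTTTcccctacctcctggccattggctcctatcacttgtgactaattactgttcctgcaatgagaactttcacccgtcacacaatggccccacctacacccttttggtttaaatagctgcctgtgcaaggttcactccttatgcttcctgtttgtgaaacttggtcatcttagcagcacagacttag
Ces2g, chr8:104961468-104961767, plus strand: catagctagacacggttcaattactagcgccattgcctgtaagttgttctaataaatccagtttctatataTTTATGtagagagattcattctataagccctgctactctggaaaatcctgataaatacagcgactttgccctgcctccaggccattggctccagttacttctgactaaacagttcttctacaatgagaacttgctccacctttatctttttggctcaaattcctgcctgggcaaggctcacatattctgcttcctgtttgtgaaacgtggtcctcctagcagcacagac

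CATAAA on either strand stood in 3 of the 6 member promoters, those of Ces1e, Ces1g and Ces2g, against 11.9% of all 32851 promoters of the table. Among the 16 promoters of Ces genes, members or not, 6 held it. These included both promoters of Ces1b and that of Ces1c, whose RNA was called neither lower nor higher. The median share of G and C bases was 47.0% in the Ces promoters, against 52.7% in all promoters. The part of base composition in the CATAAA counts was not tested. The CATAAA match began 82 bases before the start of Ces1e, 208 before that of Ces1g and 179 before that of Ces2g. TATAAA, which shares the letters ATAAA with it, stood in the Ces1g promoter alone among the 6, and in 13.6% of all promoters. The Ces1g match began 26 bases before the start and lay on the strand opposite to the one printed. AAAGTCC stood in the Ces2c promoter, 140 bases before the start, and in 4.21% of all promoters. The best match between member promoters was that of Ces2a and Ces2c, with 210 identical bases in a global alignment (70.0% of 300). The median was 59.7% over all 119 pairs of promoters of different Ces genes. Not every pair of Ces2 members stood out. That of Ces2c and Ces2e had 62.3%, as had Ces1a and Ces4a of different subfamilies. A match of letters is a description of these windows and not a binding site.

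Before the members' values, some facts of the series bear on them. The RNA libraries held 16403301 to 25494309 estimated reads. The authors' deposited table puts Cdx2 at -0.27 on the log2 scale (adjusted p = 0.301, SE 0.21), which is no called fall. A total over all exons may not show the loss of some of them, and values per exon were not examined. Cdx1, null in both groups by the labels, was at -1.06 (adjusted p = 2.08e-05, SE 0.23, mean 2595 normalized counts) in that authors' deposited table. Neither gene total thus bears out the genotype labels, and DKO and Wt here stand for the libraries so labelled. The ATAC peak lists of one group differed in how far they shared peaks. Of the 40101 peaks of DKO replicate 1, 25.8% overlapped a peak of DKO replicate 2, and 41.8% of the 23961 peaks of DKO replicate 2 overlapped one of DKO replicate 1. In the Wt lists the shares were 73.3% of 48163 peaks of replicate 1 and 64.1% of 53943 peaks of replicate 2. Peaks of DKO replicate 1 overlapped one of Wt replicate 1 or 2 in 14.1% and 15.4% of cases, those of DKO replicate 2 in 36.2% and 38.5%. DKO replicate 1 therefore stands apart, and several of the counts that rest on the ATAC lists are also given without it. Markers of other cells moved with the genotype labels in the authors' deposited table. All 15 markers of stroma, muscle and endothelium were lower (median log2 fold change -5.27), as were 7 of 10 adipocyte markers, with 2 higher (median -3.69). Over all genes of that table, 18.3% were lower and 18.5% higher. Several Ces1 lipases are expressed in fat, and the part of these cells in the carboxylesterase values was not tested. Gene totals per library cannot be given, because nothing used here pairs the transcript identifiers of the RNA files with genes, so the summed level of a marker list in each group is not shown.

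Of the 9 members measured, 8 were lower and 1 was higher in DKO at an adjusted p under 0.05 in the authors' deposited table, beside 18.3% of all its genes that were lower and 18.5% that were higher. Their median log2 fold change was -2.15 and the range -6.41 to 1.51, beside a median of -0.02 over all genes of the authors' deposited table. Over all 14 Ces genes of the authors' deposited table the median was -1.07, with 8 lower, 2 higher and 4 not called. Over the 5 of them that are no members it was -0.08, with 0 lower, 1 higher and 4 not called in the authors' deposited table. The members were chosen on this contrast, so nothing is read from these counts. The threshold of an adjusted p of 0.01 leaves the same counts, and requiring at least a 2-fold change leaves 7 lower and 1 higher. Bulk RNA cannot separate fewer cells of a type from less RNA per cell.

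**Figure D1:**
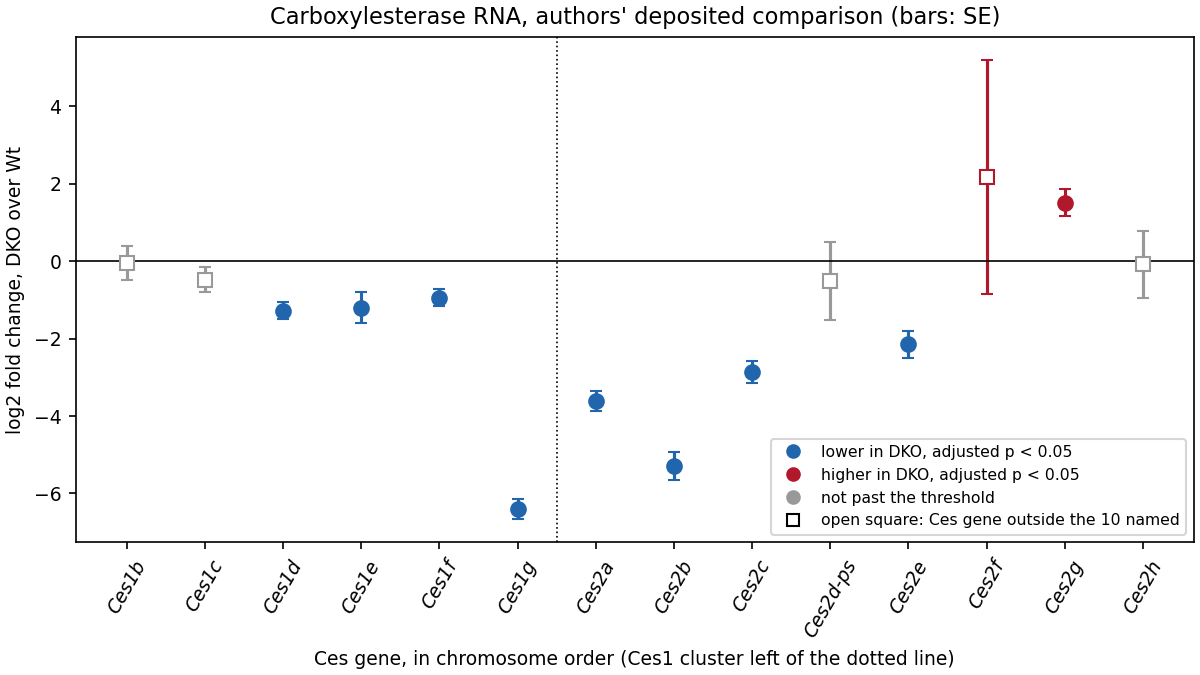
Log2 fold change of RNA, DKO over Wt (vertical axis), for the 14 Ces genes of the authors' deposited table in chromosome order, with the SE as bars. Ces1g at -6.41 and Ces2b at -5.29 lie lowest, and Ces2f and Ces2g, next to each other on the chromosome, are the 2 called higher.

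Ces1g (ENSMUSG00000057074, chromosome 8, 93302369 to 93337209), a lipid ester hydrolase of mouse liver and intestine, had the largest fall among the members. Its log2 fold change was -6.41 (adjusted p = 7.62e-128, SE 0.26) in the authors' deposited table, 84.9-fold lower in DKO, at a mean of 2868 normalized counts. Its p-value was the 10th smallest of the 17511 genes in the authors' deposited table, and only 0.702% of genes had a lower log2 fold change. The other Ces1 members had far smaller falls, although Ces1f ends only 22602 bases from Ces1g.

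Ces1d (ENSMUSG00000056973, 93166072 to 93197804), known in mouse as triacylglycerol hydrolase, was at -1.28 (adjusted p = 3.91e-08, SE 0.22, mean 1028 normalized counts) in the authors' deposited table. Ces1e (ENSMUSG00000061959, 93201218 to 93229631), the egasyn that holds beta-glucuronidase in the endoplasmic reticulum of mouse liver, was at -1.20 (adjusted p = 0.00482, SE 0.40, mean 212) in the authors' deposited table. Ces1f (ENSMUSG00000031725, 93256236 to 93279766), another lipid hydrolase of mouse liver and fat, had the smallest fall of the members, -0.94 (adjusted p = 1.54e-04, SE 0.23, mean 1777), in the authors' deposited table. The values of Ces1d, Ces1e and Ces1f lie close together beside SEs of 0.22 to 0.40, and no test of their differences can be made from this table. At the far end of the same cluster, Ces1b (-0.05, SE 0.44) and Ces1c, the plasma carboxylesterase of mouse (-0.48, SE 0.33), did not pass the threshold in the authors' deposited table, with adjusted p of 0.940 and 0.222. In chromosome order the Ces1 values thus were -0.05, -0.48, -1.28, -1.20, -0.94 and -6.41 on the log2 scale in the authors' deposited table. Ces1a, Ces1h and Ces5a had no row there.

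In the second cluster, Ces2c and Ces2e had the highest mean counts of the 9 members. Ces2c (ENSMUSG00000061825, 104847068 to 104854483), which hydrolyses acylglycerols in mouse small intestine, had a mean of 10242 normalized counts, rank 271 of all genes in the authors' deposited table. It fell by 2.86 on the log2 scale (adjusted p = 7.49e-22, SE 0.29) in the authors' deposited table, 7.24-fold lower in DKO. Ces2e (ENSMUSG00000031886, 104926260 to 104934672), known in mouse for splitting pyrethroids, followed with a mean of 6878 normalized counts and a log2 fold change of -2.15 (adjusted p = 6.42e-10, SE 0.34) in the authors' deposited table. These counts are not scaled for transcript length and do not rank the genes by level.

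Ces2a (ENSMUSG00000055730, 104734003 to 104741634), an intestinal and hepatic member, was at -3.62 (adjusted p = 2.22e-42, SE 0.26, mean 2719 normalized counts) in the authors' deposited table, 12.3-fold lower in DKO. Ces2b (ENSMUSG00000050097, 104828494 to 104840093) had the largest fall of this cluster, with a log2 fold change of -5.29 (adjusted p = 3.21e-44, SE 0.37, mean 599) in the authors' deposited table. That makes 39.2-fold less RNA in DKO, as the authors' deposited table has it. Between Ces2c and Ces2e, the pseudogene Ces2d-ps had a mean of only 17.9 normalized counts and did not pass the threshold (log2 fold change -0.51, adjusted p = 0.358, SE 1.00) in the authors' deposited table.

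Ces2g (ENSMUSG00000031877, 104961596 to 104969537) went the other way. Its log2 fold change was 1.51 (adjusted p = 3.22e-05, SE 0.35, mean 883 normalized counts) in the authors' deposited table, 2.86-fold higher in DKO. Ces2f, which ends 465 bases before Ces2g begins and is no member, was also called higher in the authors' deposited table, at 2.17 (adjusted p = 0.0313, SE 3.03, mean 174). The SE of Ces2f is larger than its fold change, and at an adjusted p under 0.01 it is not called. Ces2h, the next gene along, had a mean of 3.44 normalized counts, with a log2 fold change of -0.08 (adjusted p = 0.896, SE 0.86) in the authors' deposited table. Ces genes of one subfamily are paralogs, and reads could be split among similar copies when transcripts were quantified, so their values are uncertain to that extent.

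**Figure D2:**
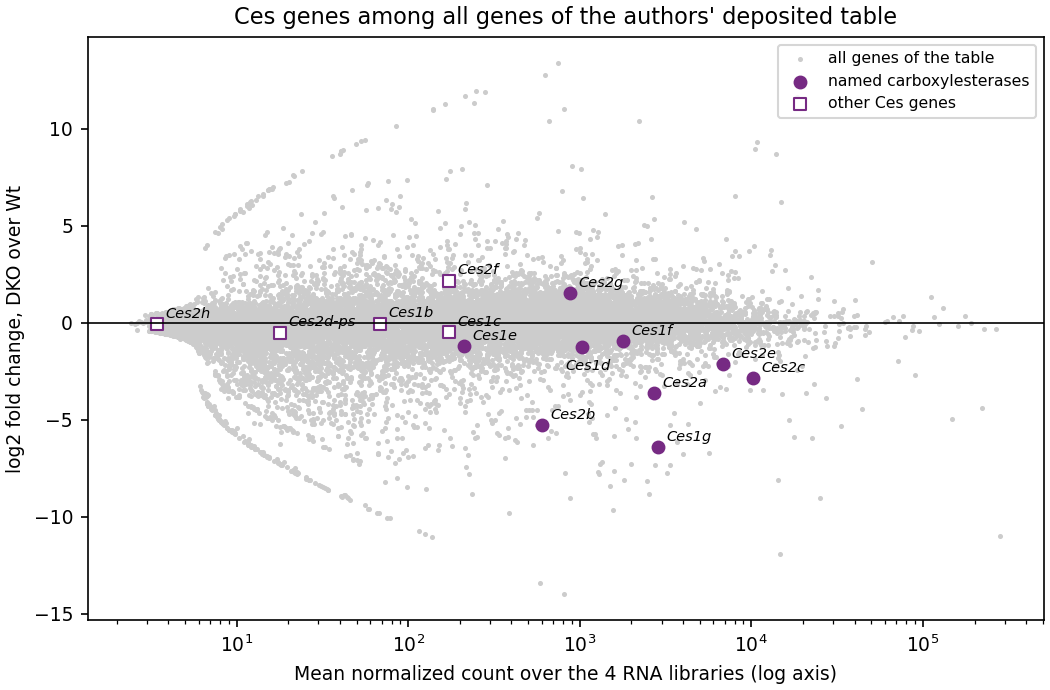
Log2 fold change, DKO over Wt, against the mean normalized count over the 4 RNA libraries (log axis) for all 17511 genes (grey), the 9 members (filled circles) and the 5 other Ces genes (open squares) of the authors' deposited table. Ces1g and Ces2b lie below most genes of similar mean, and the 5 other Ces genes all have means of 174 normalized counts or less.

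The nearest measured genes on each side differed in direction, most of them lying far off. Cbfb, a subunit of core binding factor 20.6 kb beyond Ces4a, was higher in DKO (log2 fold change 1.82, adjusted p = 2.10e-13, SE 0.24), and D230025D16Rik, further out, was at 0.70 (adjusted p = 0.0256, SE 0.28) in the authors' deposited table. On the Ces2a side, Ciao2b, a factor of cytosolic iron-sulfur assembly 92.3 kb away, was lower (-1.51, adjusted p = 2.98e-07, SE 0.28) and Rrad, 103 kb away, was not called (-0.47, adjusted p = 0.484, SE 0.85) in the authors' deposited table. On one side of the Ces1 cluster, Lpcat2, 101 kb away, was not called (-0.28, adjusted p = 0.584, SE 0.39) and the gelatinase gene Mmp2, 167 kb away, was lower (-5.28, SE 0.50), and on the other Gnao1, 430.4 kb away and beyond Ces5a, was lower (-1.91, SE 0.56) in the authors' deposited table. Mmp2 is mainly a gene of stromal cells, whose markers fell as given above, and the part of those cells in its value was not tested.

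Chromatin was compared by called peaks. Peaks of the 4 ATAC lists were joined into regions where they shared at least 1 base, and a region counted as lost if both Wt lists and neither DKO list had a peak in it. It counted as gained if both DKO lists and neither Wt list had one. With 2 against 2 libraries, an exact two-sided permutation test cannot go below p = 0.33, so these are counts without a test. The Ces1 cluster with 10 kb on each side held 2 and 0 peaks in DKO replicates 1 and 2, against 11 and 11 in Wt replicates 1 and 2. The Ces2-Ces3-Ces4 cluster held 7 and 8 peaks in DKO, against 14 and 16 in Wt. Every DKO list thus held fewer peaks here than either Wt list, as DKO lists did over the genome. Per 10000 peaks of its list, the Ces1 cluster held 0.499 and 0 in DKO, against 2.28 and 2.04 in Wt. The same rate for the Ces2-Ces3-Ces4 cluster was 1.75 and 3.34 in DKO, against 2.91 and 2.97 in Wt, so that relative to list size DKO replicate 2 lay above both Wt libraries there.

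Of the 16 regions of the Ces1 cluster, 8 were lost and 0 gained, and of the 32 regions of the Ces2-Ces3-Ces4 cluster, 7 were lost and 1 was gained. Over the genome 23.8% of 106432 regions were lost and 4.98% gained. The lost share of the Ces2-Ces3-Ces4 cluster, 21.9%, was close to that of the genome, and that of the Ces1 cluster, 8 of 16, was above it. Of the 16 cluster regions with a peak in both Wt lists, 15 (93.8%) had no peak in either DKO list, beside 75.2% of 33634 such regions over the genome. Without DKO replicate 1 the lost regions numbered 8 and 7, together 35.7% of the cluster regions against 33.1% of those of the genome, and 15 of the 16 regions with a peak in both Wt lists had no DKO peak, beside 78.0% over the genome. Without DKO replicate 2 they numbered 8 and 8, together 37.2% against 29.5%, and the 15 became 16 of 16, beside 86.3% over the genome. Leaving out either Wt library raised the count of the Ces2-Ces3-Ces4 cluster to 13 and that of the Ces1 cluster to 11. Together these were 61.5% of the cluster regions in both cases, while the share over the genome rose as well, to 45.2% without Wt replicate 1 and 41.9% without Wt replicate 2. Gained regions of the Ces2-Ces3-Ces4 cluster numbered 6 without DKO replicate 1, 5 without DKO replicate 2 and 2 without Wt replicate 2, and those of the Ces1 cluster 2 without DKO replicate 2. The gained share over the genome was 17.7% without DKO replicate 1, 33.6% without DKO replicate 2 and 6.42% without Wt replicate 2. With the same number of top peaks taken from every list (23961), 3 of 6 regions of the Ces1 cluster and 2 of 20 of the other were lost. Together these were 19.2% of the cluster regions against 19.9% of those of the genome. With peaks of a -log10 q of at least 5, lost regions numbered 3 of 9 and 4 of 11, together 7 of 20 cluster regions. The share over the genome was 45.2% there, so that of the Ces1 cluster no longer lay above it.

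**Figure D3:**
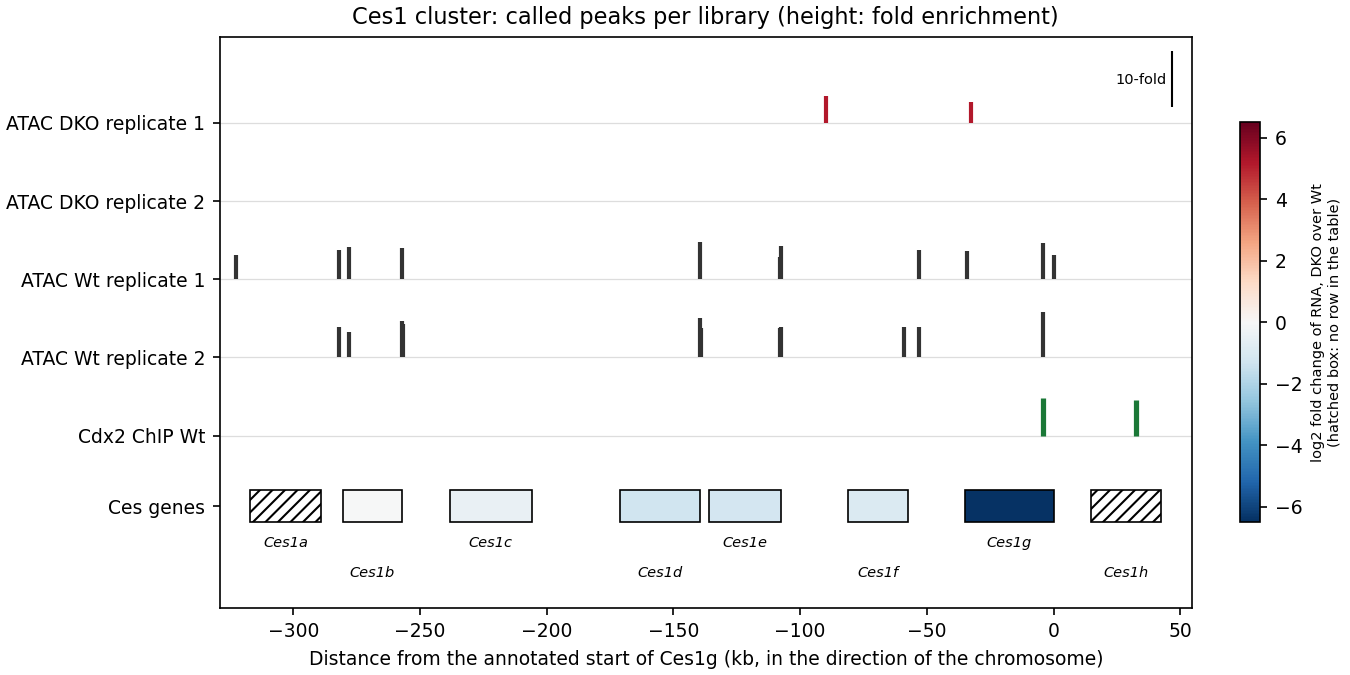
Called peaks across the Ces1 cluster by library, as distance in kb from the annotated start of Ces1g, with bar height the authors' fold enrichment of each peak and gene boxes coloured by log2 fold change of RNA, DKO over Wt. DKO replicate 1 has 2 peaks and DKO replicate 2 none, against 11 in each Wt library, and the Cdx2 peak inside Ces1g lies on an ATAC peak of both Wt libraries.

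At single members the ATAC lists gave the following, with each fold enrichment being the authors' value for that peak. Distances given from a single region to a gene are counted from the midpoint of the region. On Ces2c, a region over the transcription start (104846827 to 104847215) had no peak in either DKO list, against fold enrichments of 10.9 in Wt replicate 1 and 10.6 in Wt replicate 2. Those are the highest peaks of both Wt lists in this cluster, above 98.0% and 97.2% of the peaks of their own list. The AAAGTCC match in the promoter printed above lies inside that peak in both Wt lists.

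On Ces2a, no peak lay on the 300 bases around the start in any list, but a region 1.83 kb upstream (104731937 to 104732416) had none in DKO, against 7.44 and 8.68 in the Wt lists. Ces2e had no region with its midpoint within 4 kb of its start. The nearest, with its midpoint 4062 bases upstream, was a peak of DKO replicate 1 only (fold enrichment 5.06). Within 2 kb of Ces2b only DKO replicate 1 had peaks, 1891 bases outside one end (4.66) and 1303 bases outside the other (4.51). The fall of Ces2b and Ces2e was therefore not accompanied by a lost region at their ends.

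Ces2g had no peak in either DKO list over its start (104961653 to 104961848), against 5.58 and 5.13 in the Wt lists. A further region inside the gene (104963663 to 104963771) was lost too, with 5.53 and 4.43 in the Wt lists. Its RNA was higher in DKO, so here the called peaks and the RNA went opposite ways. Ces2h, which is no member, had a peak on its start in DKO replicate 2 (4.66, above 85.9% of the peaks of that list) but not in DKO replicate 1. Wt replicates 1 and 2 had peaks there of 9.99 and 9.46, above 96.2% and 94.4% of the peaks of their own lists. The one gained region of the clusters (104992431 to 104992614, 3.80 and 3.59 in the DKO lists) lay 8308 bases upstream of Ces2h, inside the annotated gene Gm5743. Ces3a, the member without an RNA value, held a region inside its span (105051268 to 105051393) with no DKO peak, against 4.45 and 4.09 in the Wt lists.

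**Figure D4:**
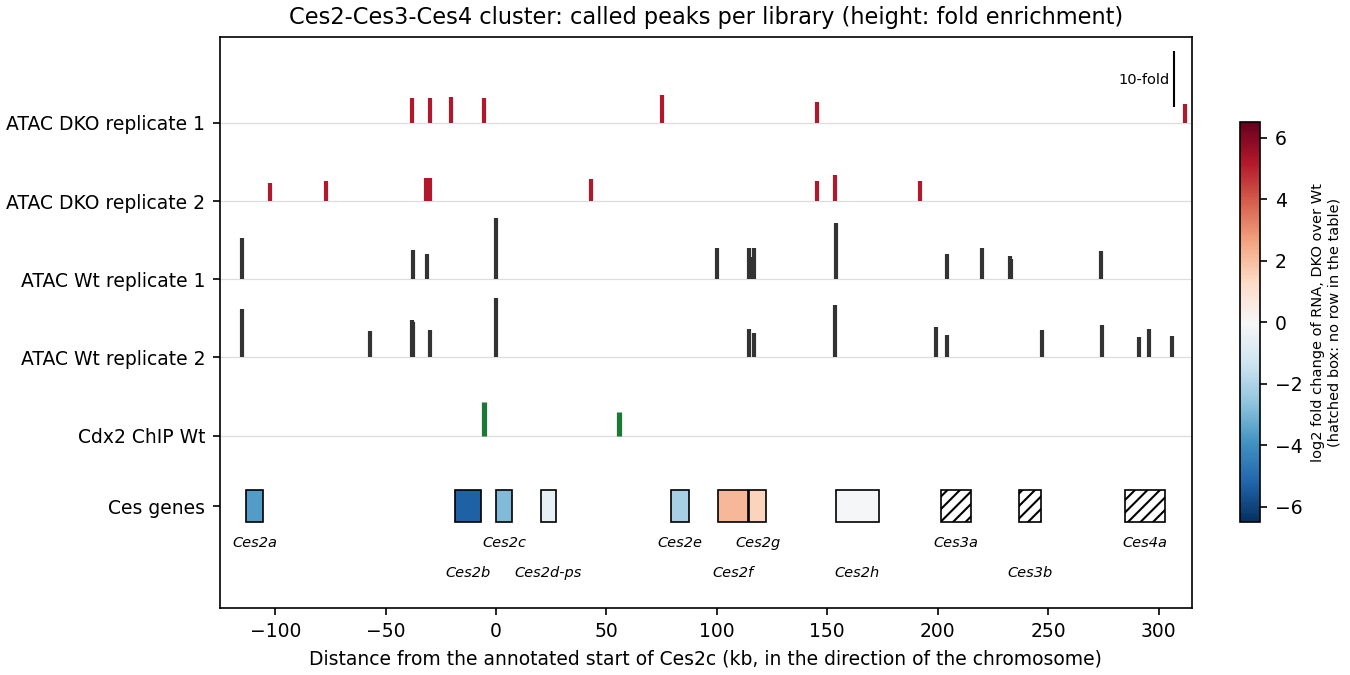
Called peaks across the Ces2-Ces3-Ces4 cluster by library, as distance in kb from the annotated start of Ces2c, drawn as for the Ces1 cluster. The DKO lists hold 7 and 8 peaks, mostly away from gene starts, against 14 and 16 in the Wt lists, where the peaks on Ces2c reach fold enrichments of 10.9 and 10.6.

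In the Ces1 cluster, Ces1e had no peak over its start in DKO (93229605 to 93229771), against 6.01 and 5.48 in the Wt lists, and the CATAAA match of the promoter printed above lies inside that peak in both. A second region 494 bases into Ces1e was lost as well, with 3.95 and 5.31 in the Wt lists. Ces1d had no peak in DKO over the end of its span next to Ces1e (93197606 to 93197830), against 6.73 and 7.0 in the Wt lists. Ces1b, whose RNA was not called, had lost regions inside it and beside it too. Ces1f had a lost region 4357 bases beyond its span (93284044 to 93284202, 5.17 and 5.50 in Wt) and, inside it, a peak in Wt replicate 2 only (5.44). On the Ces1g promoter a peak was called in Wt replicate 1 alone (4.40), and neither the CATAAA nor the TATAAA match lies inside it. DKO replicate 1 had a peak of its own inside Ces1g (93304524 to 93304772, 3.71). Among the 6 members with a promoter sequence, 0 had a peak on it in either DKO list, 4 in at least 1 Wt list and 3 in both Wt lists. Over all 32851 promoters, 18.4% had a peak in at least 1 DKO list, 40.8% in at least 1 Wt list and 19.8% in both Wt lists and neither DKO list. The 3 member promoters with a peak in both Wt lists and the 0 with a DKO peak were unchanged without DKO replicate 1, where 16.4% of all promoters had a DKO peak and 21.0% had one in both Wt lists and not in the DKO list. Without DKO replicate 2 both counts were unchanged as well. There only 8.20% of all promoters had a DKO peak, and 29.0% had a peak in both Wt lists and not in the DKO list.

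Of the 5100 Cdx2 peaks on assembled chromosomes, 4 lay in the clusters. The ChIP library has no replicate, so they stand as the authors' caller gave them. The strongest (93332737 to 93333051, fold enrichment 6.81, -log10 q 10.6, rank 1476 by q) lay inside Ces1g, with its summit 4310 bases from the start in the direction of transcription. It was also the only one of the 4 to overlap an ATAC region (93332855 to 93333075). That region had no peak in either DKO list, against 6.52 in Wt replicate 1 and 8.12 in Wt replicate 2, above 77.0% and 88.9% of the peaks of their lists. Ces1g, the member with the largest fall, thus held both a Cdx2 peak and an ATAC region with a called peak in both Wt lists and in neither DKO list. A Cdx2 peak lay inside the span of 11.1% of the 16370 genes placed on the genome and of 1 of the 9 members, which is no more than the background. A lost region lay inside the span of 52.4% of the placed genes. The share of genes holding both is not given here, so nothing is read from the pairing at Ces1g.

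The second Cdx2 peak (93369564 to 93369864, fold enrichment 6.37) lay inside Ces1h, a gene without a row in the table, and met no ATAC peak. A further one (104841596 to 104841937, 6.10) lay between Ces2b, 1697 bases from its end, and Ces2c, 5278 bases before its start. It overlapped no ATAC peak, the nearest being one of DKO replicate 1 at 34 bases and those of the Wt lists at 4950 and 4889 bases. The last (104902733 to 104902963, 4.20, -log10 q 3.29) was among the weakest of all Cdx2 peaks, with rank 4854 of 5100, and lay 23413 bases before Ces2e. Within 10 kb of their spans, 3 of the 9 members (Ces1g, Ces2b and Ces2c) had a Cdx2 peak, beside 18.1% of all placed genes and 22.7% of those called lower, and Ces2b and Ces2c shared the same peak. Inside the gene span, a lost ATAC region lay in 5 of the 9 members, beside 52.4% of all placed genes, which is about the background. That count was 5 as well without DKO replicate 1, beside 54.4%, and without DKO replicate 2, beside 63.7%. With all lists, a lost region lay within 10 kb of 8 of the 9 members, the exception being Ces2e. The shares within 10 kb were 67.0% of all placed genes and 69.6% of those called lower. Without DKO replicate 1 the count within 10 kb was 8 as well, beside 68.7% of placed genes, and without DKO replicate 2 it was 8 beside 75.4%. No gained region lay that close to any of the 9, beside 13.8% of placed genes, but 1 of 9 had one without DKO replicate 1, beside 32.6%, and 5 of 9 without DKO replicate 2, beside 51.1%.

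Other genes of ester, lipid and drug metabolism were read from lists. Their counts stand beside 18.3% of all genes lower and 18.5% higher, and no list was tested against these shares. Of 21 further ester and neutral lipid hydrolases measured, 9 were lower and 3 higher (median log2 fold change -0.50) in the authors' deposited table. Cel, the bile salt dependent lipase, was at -6.38 (adjusted p = 4.32e-16, SE 0.77) and lipoprotein lipase, Lpl, at -4.68 (adjusted p = 4.57e-25, SE 0.44) in the authors' deposited table. Of 13 genes of triacylglycerol synthesis and packaging, 8 were higher and 1 was lower (median 0.82) in the authors' deposited table. Among them Mttp, which loads lipid onto apolipoprotein B, was at 4.66 (adjusted p = 1.09e-39, SE 0.35) and the acyltransferase Dgat2 at 2.22 (adjusted p = 2.21e-19, SE 0.24) in the authors' deposited table.

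Xenobiotic enzymes other than carboxylesterases were split, with 10 of 30 lower and 7 higher (median -0.17) in the authors' deposited table. Over all genes there, 18.3% were lower and 18.5% higher. The colonic cytochrome P450 Cyp2c55 was at -5.01 (SE 0.28), Cyp3a44 at -5.14 (SE 0.87) and the glutathione transferase Gsta1 at 4.29 (SE 0.21) in the authors' deposited table. The genes of Cyp3a44 and Gsta1 have close copies among which reads could be split. Of 20 nuclear receptors and upstream factors, 5 were lower and 5 higher (median -0.05) in the authors' deposited table, not far from the shares over all genes. The furthest from 0 were Klf15 at 5.41 (SE 0.54) and Gata4 at 2.99 (SE 0.62). The receptor PXR, Nr1i2, was not called (0.14, adjusted p = 0.744, SE 0.28), nor was CAR, Nr1i3 (0.71, adjusted p = 0.175, SE 0.48), while the hepatocyte nuclear factors Hnf4a (-1.09, adjusted p = 2.10e-05, SE 0.24) and Hnf4g (-1.85, adjusted p = 0.00189, SE 0.61) were lower in the authors' deposited table. Those 4 were singled out after their values were seen.

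**Figure D5:**
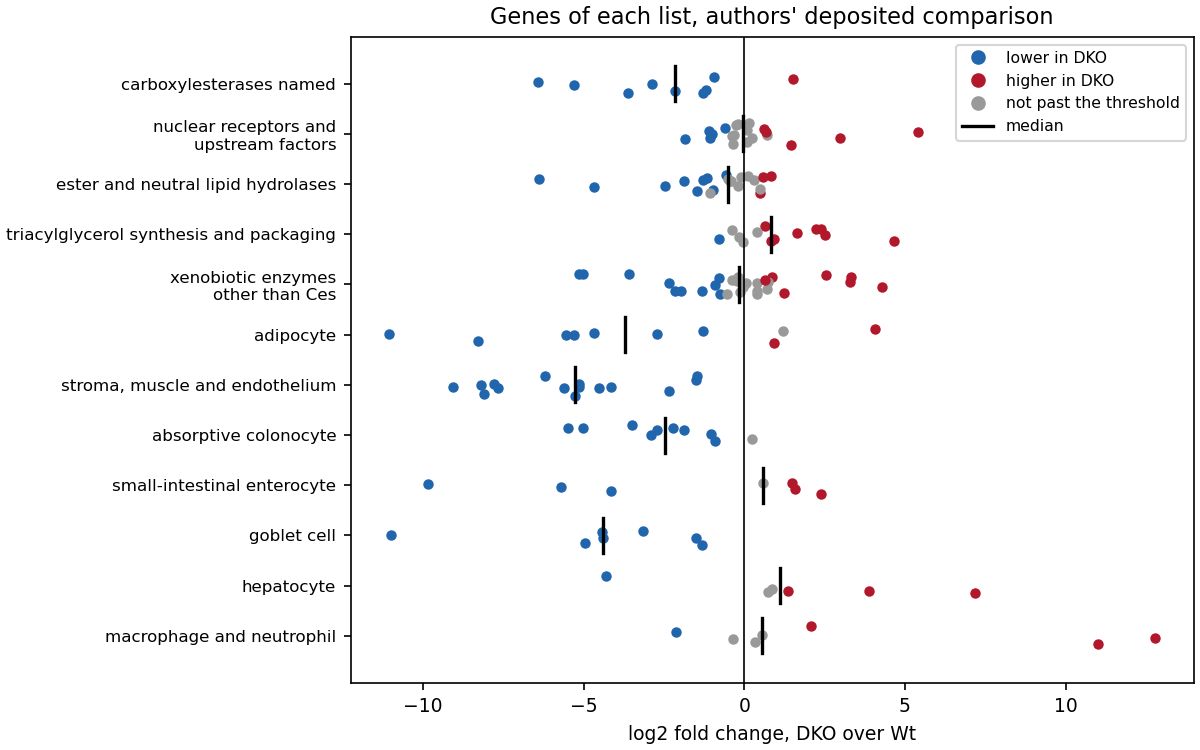
Log2 fold change, DKO over Wt, of the 9 members measured and of every measured gene of 11 other lists in the authors' deposited table, with a black line at each median. The 9 carboxylesterases shown, which were chosen on this contrast, have a median of -2.15, against -1.07 over all 14 Ces genes measured, and the lists run from a median of -5.27 for stroma, muscle and endothelium to 1.11 for hepatocytes.

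Markers of the epithelial types moved as follows in the authors' deposited table, beside the carboxylesterases. The counts of each list stand beside 18.3% of all genes lower and 18.5% higher. Of 10 markers of absorptive colonocytes 9 were lower and 0 higher (median -2.46), among them Slc51a, a subunit of a bile acid exporter, at -5.48 (SE 0.31), in the authors' deposited table. The marker not called was Slc51b, the other subunit, at 0.25 (adjusted p = 0.742, SE 0.68) in the authors' deposited table. Goblet cell markers were lower in all 7 (median -4.39), with the mucin Muc2 at -4.95 (SE 0.20) and Clca1 at -10.99 (SE 0.36) in the authors' deposited table. Means of 147041 normalized counts for Muc2 and 282569 for Clca1 fit the labelled tissue, as goblet cells are plentiful in colon epithelium. Of 7 markers of small-intestinal enterocytes 3 were lower and 3 higher (median 0.58) in the authors' deposited table. The lower ones were Fabp2 at -4.14 (SE 0.30), Alpi at -5.71 (SE 0.47) and Sis at -9.84 (SE 2.97) in the authors' deposited table. The higher ones were Fabp1 at 2.40 (SE 0.70), Apoa4 at 1.59 (SE 2.66) and Rbp2 at 1.49 (SE 0.23) in the authors' deposited table. Sis and Fabp1 had low means there, 67.2 and 64.8 normalized counts, and the SE of Apoa4 is larger than its log2 fold change. Hepatocyte markers, listed because the liver is rich in carboxylesterases, were called higher in 3 cases of 6 and lower in 1 (median 1.11), with Alb at 3.88 (SE 0.43), Ttr at 1.36 (SE 0.20) and Fgb at 7.17 (SE 1.51) in the authors' deposited table. Macrophage and neutrophil markers were higher in 3 and lower in 1 of 7 (median 0.56), with S100a8 at 10.99 (SE 2.13), S100a9 at 12.79 (SE 3.86) and Lyz2 at -2.13 (SE 0.27) in the authors' deposited table. Among adipocyte markers Cfd was at -11.05 (SE 3.09) and Fabp4 at 4.08 (SE 0.38), and among stromal ones Acta2 was at -8.11 (SE 0.35), Col3a1 at -5.14 (SE 0.26) and Cnn1 at -9.06 (SE 0.59) in the authors' deposited table. The part of these shifts in the carboxylesterase values was not tested.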

How the data were processed

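RNA was quantified by the authors as estimated counts per transcript with Salmon, per the file headers; here these counts gave only library totals. The deposited gene table holds a mean normalized count, a signal scaled between libraries by the authors. The log2 fold changes in it (DKO over Wt), their standard errors (SE, in log2 units), p-values and adjusted p-values are also the authors', per the file headers. Fold over SE returns the deposited p within 0.01 in log10 for 1751 of 17511 genes, so the folds appear shrunken. Its direction was checked against transcript totals: of features with a mean of at least 10000 reads, 9 transcripts and 9 genes were at least 8-fold higher in DKO, and 19 and 16 lower. Salmon 1.3.0, DESeq2, MACS2, BWA, Bowtie2 and fastp are named without roles per the submitters' processing notes, with builds mm10 and GRCm38; no source used here states their settings.

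The deposited peak lists hold 1 library each and have no header. Starts were moved to count from 1. Each peak carries a fold enrichment ratio and a -log10 q that the authors deposited, used only within its own list. The depth of ATAC and ChIP libraries is unknown. The gene-level edgeR test planned was not run, since nothing used here pairs transcripts with genes. Lists, members and naming rule were chosen with earlier results of these data known. The rule names all Ces genes, the 2 nearest measured genes on each side of a cluster, and per list the 2 smallest p and the largest fold past the threshold. One gene that the rule names is not reported here. Analyses ran in Python 3.11.15 with pandas 2.3.3, numpy 2.4.6 and Biopython 1.88 (alignment scores 1, -1, -2 and -0.5 for match, mismatch, gap opening and extension); region calling and p adjustment were tested on simulated data. Genes were placed by RefSeq spans for 16370 of 17511 genes.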

Additional observations from a re-analysis of the deposited data

How the results depend on the processing

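The counts of members called, 8 lower and 1 higher, kept to within 1.5 times under all 3 alternatives tried. Requiring a mean of at least 50 normalized counts, with p readjusted, lowered the adipocyte markers called lower to 4 and the hepatocyte markers called lower to 0, by testing fewer genes. Peak counts moved more. With peaks of a -log10 q of at least 5, lost regions numbered 3 in the Ces1 cluster and 4 in the Ces2-Ces3-Ces4 cluster, and in the Ces2-Ces3-Ces4 cluster 0 regions were gained and 1 Cdx2 peak remained. With equal numbers of top peaks, 3 and 2 were lost and 2 were gained in the Ces2-Ces3-Ces4 cluster. Leaving out 1 ATAC library at a time gave 8 to 11 lost and 0 to 2 gained regions in the Ces1 cluster, and 7 to 13 lost and 1 to 6 gained in the other; fewer lists make both calls easier. In an alternative chosen after seeing the data, leaving out each DKO list, 1 to 5 of the 9 members had a gained region within 10 kb, against 0 with all lists, and the other counts on members and their promoters kept to within 1.5 times. The cause of the other shifts was not tested. No paired analysis was possible because the gene table has no values per library and peak lists give no test. For the same reason no RNA library could be left out, and the planned DESeq2, filter and left-out-library fits of the RNA were not run. The number of called peaks limits what the DKO lists can show, and a peak not called does not show closed chromatin.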
